A study of Mus musculus with 6 samples.

Results

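Transcripts of 10 genes that mark lung epithelium or the mesothelial lining were followed in cultures of mouse lung fibroblasts. The genes were chosen by name as markers of alveolar, airway and mesothelial cells, with earlier results of these data known. All 10 were found by Ensembl identifier among the 45706 genes of the deposited table. They were the secreted protein genes Sftpc and Scgb1a1, the adhesion genes Epcam and Cdh1, the keratin genes Krt8, Krt18 and Krt19, and the mesothelial genes Msln, Upk3b and Wt1. The study treated wild-type fibroblasts with recombinant mouse DKK1, a secreted inhibitor of Wnt signalling that binds the co-receptors LRP5 and LRP6, to find the genes that respond to it. There were 3 control samples, described only as control, and 3 samples exposed to DKK1 at 30 ng/ml for 24 hours, numbered 1 to 3 in each group. The cells grew out of perfused, collagenase-digested lung seeded into plates and were detached and purified after a week; how they were purified, and the age and sex of the mice, are not given in the sources used here. RNA sequencing gave 22565917 to 34727102 counts per library.

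Epithelial cells are joined by cadherin and claudin contacts and are filled with keratin filaments built from pairs of type I and type II chains. Alveolar type 2 cells secrete surfactant, club cells of the airway secrete secretoglobins, and mesothelial cells cover the lung surface and make keratins as well. Fibroblasts instead carry vimentin filaments, and transcription factors of the ZEB, SNAIL and TWIST families, active in mesenchymal cells, repress Cdh1 and other epithelial genes.

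The labelled cell type was checked by its markers. All 12 genes of a list of fibroblast identity were detected, and their summed level was between 17142 and 20741 CPM (the count scaled to the library's total), against 61.0 to 170 CPM for the 10 epithelial and mesothelial genes together. The latter took from 0.00610% to 0.0170% of all counts. Average levels on the fibroblast list ran from 2.35 CPM for Lum, below Epcam (2.72 CPM), to 5743.5 CPM for Col1a1. The sum of that list thus rests on its abundant genes. In RNA from a whole culture, fewer cells of a type and less RNA per cell cannot be told apart.

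The level of these genes differed between the replicate numbers, and no difference was called between treated and control cells. In all 9 genes that passed the filter on low counts (all members but Scgb1a1), both libraries numbered 3, from control and from DKK1-treated cells, lay above the other 4 libraries, and so number 3 was the highest within each group; 13.3% of the 14635 genes tested had the first order and 20.6% the second. All 9 differed between the replicate numbers (edgeR quasi-likelihood test of the number within a model that also holds the treatment, Benjamini-Hochberg adjusted p of 0.000848 or less), each with number 3 highest. Of all tested genes, 12.9% were called between the numbers and 5.06% were called with number 3 highest. The members were chosen knowing that number 3 stood apart, so the shares describe them and give no independent support for that order. With both libraries numbered 3 left out, 0 of the 9 differed between numbers 1 and 2 (edgeR; 1, Krt19, had an unadjusted p under 0.05), where 5.35% of genes were called. None of the 9 was called between DKK1-treated and control cells, where 0.895% of all genes were called. Nothing in the labels tells the meaning of a number or whether replicates came from separate mice, so p-values measure the spread between these samples.

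**Figure D1:**
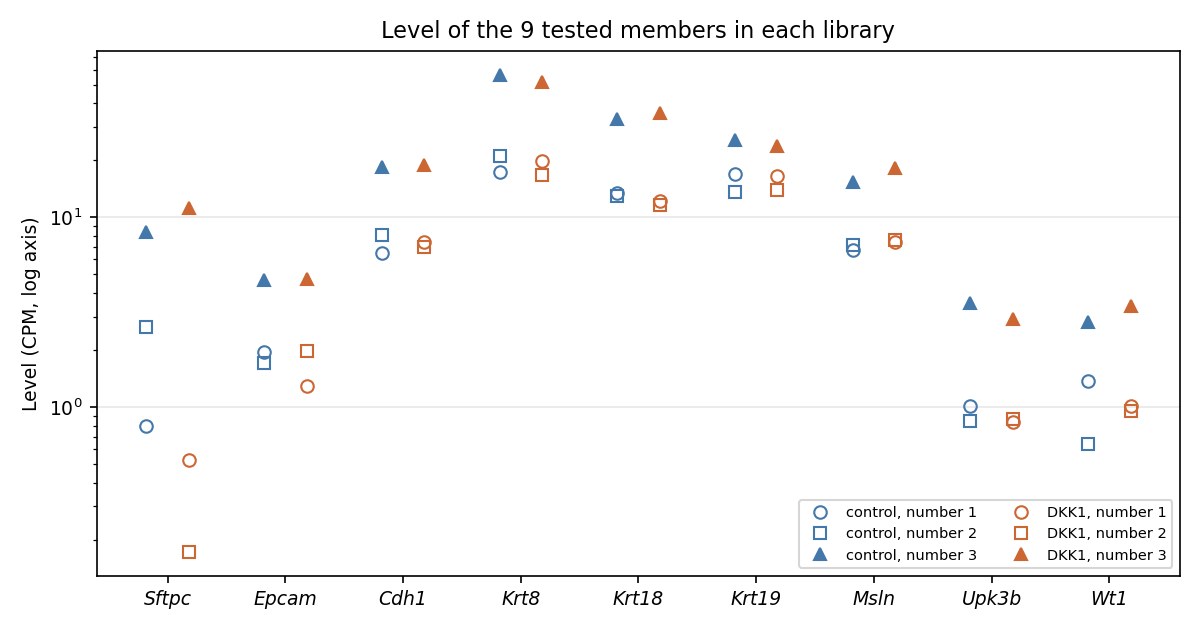
Level of each of the 9 tested members in the 6 libraries, in CPM on a log axis; blue is control, orange is DKK1-treated, and the shape gives the replicate number (triangles, number 3). The triangles of both colours lie above all circles and squares in each gene, while blue and orange interleave.

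Per transcript length, the keratins had the highest mean levels of these genes. Promoters of Krt8, Krt18 and Epcam are shown because epithelial genes are targets of repressors that bind the E-box CAGGTG. Several of those repressors were abundant here: Zeb1, Zeb2 and Snai1 averaged 111, 161 and 102 CPM. RefSeq (assembly GRCm38.p6) gave promoter sequence for 4 of the 10 genes, and the 250 bases before the RefSeq start of 3 of them are printed 5′ to 3′ on the gene's own strand, with CAGGTG or its reverse complement CACCTG in capitals.
Krt8, chr15:102004343-102004592, minus strand: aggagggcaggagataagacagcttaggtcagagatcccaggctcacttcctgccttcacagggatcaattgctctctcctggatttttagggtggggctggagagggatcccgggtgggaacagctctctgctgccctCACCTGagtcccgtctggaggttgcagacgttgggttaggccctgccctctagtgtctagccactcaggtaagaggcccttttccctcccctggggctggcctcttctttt
Krt18, chr15:102027966-102028215, plus strand: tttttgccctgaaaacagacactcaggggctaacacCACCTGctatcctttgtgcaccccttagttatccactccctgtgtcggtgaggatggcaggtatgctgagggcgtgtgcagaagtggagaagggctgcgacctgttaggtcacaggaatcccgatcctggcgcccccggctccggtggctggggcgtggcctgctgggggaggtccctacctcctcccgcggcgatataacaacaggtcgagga
Epcam, chr17:87635729-87635978, plus strand: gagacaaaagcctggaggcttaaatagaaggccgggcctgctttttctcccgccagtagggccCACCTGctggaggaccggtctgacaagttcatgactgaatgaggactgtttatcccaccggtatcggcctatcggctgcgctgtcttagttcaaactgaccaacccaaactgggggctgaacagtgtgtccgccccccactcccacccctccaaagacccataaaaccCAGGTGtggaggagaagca
The Krt8 window holds 1 match, beginning 111 bases before the start, Krt18 holds 1 at 214 bases and Epcam holds 2, at 187 and 19 bases. The window of Upk3b held none. CAGGTG on either strand occurs in 17.2% of 32851 such windows of 250 bases, so a match alone is no evidence of binding. Binding was not measured. GENCODE M21 places the start of Krt8 140 bases, and that of Krt18 36 bases, farther upstream than RefSeq does. By GENCODE the Krt8 match therefore lies inside the gene and not before its start.

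Krt8 (ENSMUSG00000049382, chr15:101996698-102004482 in GRCm38, minus strand) encodes a type II keratin of simple epithelia. It measured 17.3, 20.9 and 56.5 CPM in control libraries 1, 2 and 3, and 19.9, 16.8 and 51.6 CPM in DKK1 libraries 1, 2 and 3. Both libraries numbered 3 were high, and the groups overlapped. On the log2 scale number 3 was 1.52 (SE 0.08) above number 1 and 1.51 (SE 0.08) above number 2, while numbers 1 and 2 differed by 0.002 (SE 0.10; edgeR adjusted p of the number = 1.24e-07). It held the ninth smallest p-value of the 14635 genes in that test. An annotated noncoding gene on the opposite strand overlaps an exon of Krt8, and whether counting used strand is not given in the sources used here.

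Krt18 (ENSMUSG00000023043, chr15:102028180-102032027, plus strand) encodes the type I partner of keratin 8 and lies 23697 bases from Krt8. Its levels were 13.4, 12.9 and 32.9 CPM in controls 1 to 3 and 12.2, 11.7 and 35.7 CPM with DKK1. The pattern was that of Krt8, with number 3 above number 1 by a log2 difference of 1.42 (SE 0.08) and above number 2 by 1.47 (SE 0.08; edgeR adjusted p = 1.27e-07). Scaled to transcript length, the ratio of Krt8 to Krt18 stayed between 0.9502 and 1.26 over the 6 libraries.

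Krt19 (ENSMUSG00000020911, chr11:100140810-100148665, minus strand), a type I keratin of simple and ductal epithelia, varied least among the 9 tested genes. It stood at 16.8, 13.6 and 25.5 CPM in control and at 16.6, 14.0 and 23.8 CPM in DKK1 libraries 1, 2 and 3. The libraries numbered 3 were again the highest, and those numbered 2 the lowest in both groups. Number 3 was above number 1 by a log2 difference of 0.55 (SE 0.07) and above number 2 by 0.82 (SE 0.07; edgeR adjusted p = 1.94e-05). The length-scaled ratio of Krt8 to Krt19 therefore moved with the number, from 0.516 to 0.771 in the 4 libraries numbered 1 and 2 to 1.11 and 1.09 in those numbered 3.

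Cdh1 (ENSMUSG00000000303, chr8:106603351-106670246, plus strand) encodes E-cadherin, the adhesion molecule of epithelial junctions. It was measured at 6.47, 8.10 and 18.3 CPM in control libraries 1 to 3 and at 7.40, 6.97 and 19.0 CPM after DKK1. Number 3 exceeded number 1 by a log2 difference of 1.41 (SE 0.11) and number 2 by 1.30 (SE 0.11; edgeR adjusted p = 2.14e-06). Epcam (ENSMUSG00000045394, chr17:87635979-87651129, plus strand), a membrane glycoprotein of epithelial cells, was lower, at 1.95, 1.70 and 4.68 CPM in control and 1.29, 1.99 and 4.73 CPM with DKK1, from 37 to 109 counts per library. Number 3 was again the highest in both groups, with log2 differences of 1.55 (SE 0.23) and 1.33 (SE 0.22) over numbers 1 and 2 (edgeR adjusted p = 0.000549).

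Sftpc (ENSMUSG00000022097, chr14:70520949-70524081, minus strand), the surfactant protein C gene of alveolar type 2 cells, varied most among the 9 tested genes. It had 18, 75 and 190 counts in controls 1, 2 and 3, or 0.798, 2.65 and 8.39 CPM, and 15, 6 and 258 counts with DKK1, or 0.523, 0.173 and 11.2 CPM. Its highest library exceeded its lowest 64.8-fold, against 1.87-fold for Krt19 and up to 5.38-fold for the other tested genes. Number 3 was above number 1 by a log2 difference of 3.93 (SE 0.57) and above number 2 by 2.95 (SE 0.49; edgeR adjusted p = 0.000390); DESeq2's likelihood ratio test did not call it (adjusted p = 0.0860). The difference between its highest and lowest number was 5.89 on the log2 scale without control library 2 and 2.75 without DKK1 library 3.

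Within number 2, Sftpc parted from the other epithelial genes. The control library held 15.4 times the Sftpc level of the DKK1 library (exact 95% interval 6.73 to 43.2, for counting error only), and it was not called with the treatment in any fit. Epcam in the same pair was 1.17 times higher with DKK1 (0.798 to 1.73) and Krt8 was 0.802 times the control level (0.714 to 0.900). Other alveolar type 2 genes, chosen after their values were seen, had few counts in DKK1 library 2: Sftpb, a second surfactant protein, went from 18 counts in control 2 to 2, and Lamp3, a lamellar body protein, from 3 to 0. A count of 0 still allows 3, so Lamp3 alone shows no fall. Of all 12 other type 2 genes on the list, Nkx2-1 went from 20 counts in control 2 to 10 in DKK1 2, and Slc34a2 from 7 to 2. Hc went from 5 to 2, and Sftpa1, Sftpd and Cxcl15 from 2 to 0, too few counts to tell a fall. The 3 abundant genes of the list were near their control level. In control 2 and DKK1 2, Abca3 measured 26.3 and 26.9 CPM, Etv5 measured 35.1 and 34.7 CPM, and Lyz2 measured 402 and 412 CPM. Napsa had 22 counts in both libraries.

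**Figure D2:**
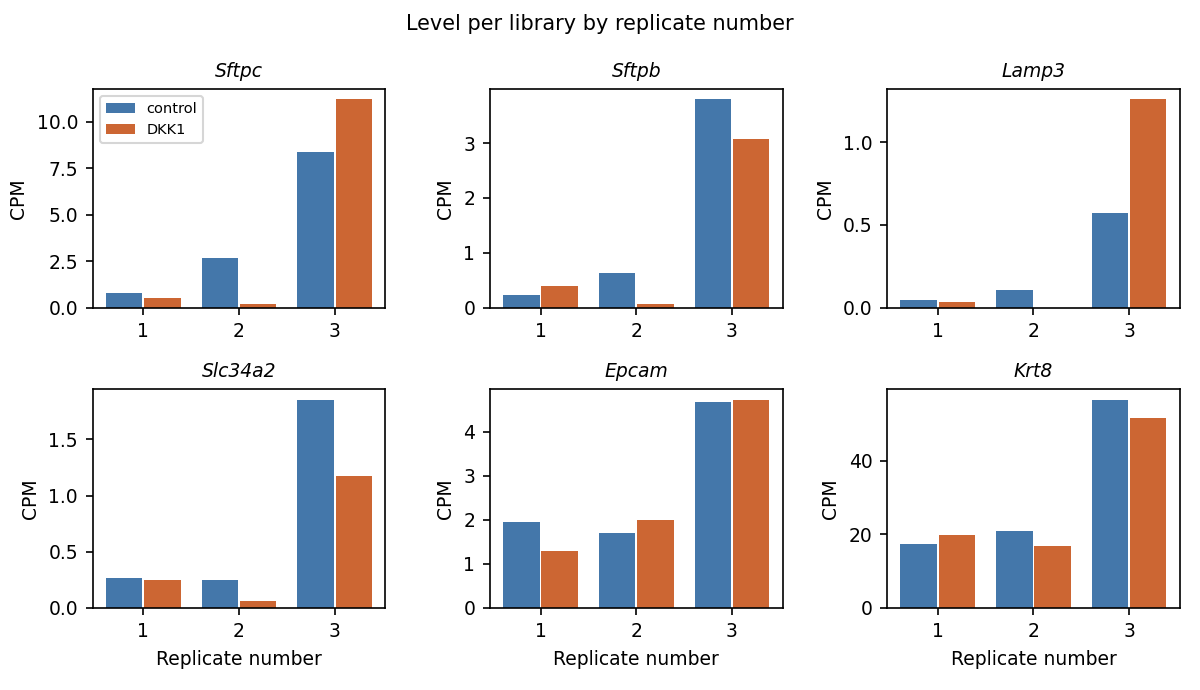
Level in CPM of 3 other alveolar type 2 genes (Sftpb, Lamp3, Slc34a2), picked after their values were seen, beside Sftpc, Epcam and Krt8, by replicate number; 1 bar is 1 library, blue for control and orange for DKK1, and the vertical scale differs between panels. Sftpc is 2.65 CPM in control 2 and 0.173 CPM in DKK1 2, while Epcam and Krt8 have no such gap.

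Scgb1a1 (ENSMUSG00000024653, chr19:9083636-9087958, minus strand), the secretoglobin of airway club cells, was at the limit of detection. It had 2, 0 and 3 counts in the controls and 1, 0 and 0 counts with DKK1, so 5 of the 6 libraries were under 3 counts, the number that a count of 0 still allows. That limit was 0.0864 to 0.133 CPM by library, and Scgb1a1 was not tested. Of 12 other airway genes on a list of markers, 10 did not pass the filter on low counts. Of these, 2 (Scgb3a2 and Bpifa1) had no count in any library.

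Msln (ENSMUSG00000063011, chr17:25748613-25754378, minus strand) encodes mesothelin, a surface glycoprotein of mesothelial cells. It was found at 6.74, 7.18 and 15.3 CPM in controls and 7.40, 7.57 and 18.1 CPM with DKK1. Number 3 was above number 1 by a log2 difference of 1.23 (SE 0.10) and above number 2 by 1.17 (SE 0.10; edgeR adjusted p = 3.35e-06). Upk3b (ENSMUSG00000042985, chr5:136038496-136046487, plus strand), a uroplakin made by mesothelium, stood at 1.02, 0.849 and 3.53 CPM in control and at 0.837, 0.864 and 2.91 CPM in DKK1 libraries, and Wt1 (ENSMUSG00000016458, chr2:105126529-105173616, plus strand), a mesothelial transcription factor, at 1.37, 0.637 and 2.83 CPM and at 1.01, 0.9503 and 3.43 CPM. In both, number 3 was the highest in each group. The log2 differences of number 3 over numbers 1 and 2 were 1.78 (SE 0.26) and 1.88 (SE 0.25) for Upk3b (edgeR adjusted p = 0.000252), and 1.40 (SE 0.28) and 1.95 (SE 0.28) for Wt1 (edgeR adjusted p = 0.000848). Wt1 rested on 18 to 79 counts per library and Upk3b on 23 to 80.

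Scaled to the mean length of the transcripts listed for each gene and to the same sum in every library, the order of the mean levels over the 6 libraries was Krt19 (30.8 ± 8.29, SD, n = 6), Krt8 (25.6 ± 15.3), Krt18 (22.6 ± 12.8), Sftpc (8.17 ± 9.65), Msln (8.06 ± 3.82), Cdh1 (6.46 ± 3.43), Epcam (2.19 ± 1.24), Wt1 (1.44 ± 0.957), Upk3b (0.775 ± 0.563) and Scgb1a1 (0.148 ± 0.193). Of neighbours in this order, Cdh1 and Epcam alone had ranges that did not overlap. Library by library, Krt19 was above Krt8 in 4 libraries, those numbered 1 and 2, while Krt8 was above Krt19 in both libraries numbered 3 (47.4 against 42.5 in control and 43.0 against 39.5 with DKK1), and Krt8 was above Krt18 in 5. Krt18 was above Sftpc, Msln above Cdh1, Epcam above Wt1 and Wt1 above Upk3b in 6 of 6 libraries, whereas Sftpc was above Msln in 2, those numbered 3. Without DKK1 library 3 the mean of Sftpc was 5.20, below Msln (6.88) and Cdh1 (5.54), and without control library 3 it was 6.34, below Msln (7.30). With the union of exons as the length, Krt8 and Krt18 came before Krt19, and 5 of the 10 genes kept their rank.

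Whether DKK1 moved any of these genes was tested over 3 against 3 samples. Of the 9 genes tested, 0 were called and 0 had an unadjusted p under 0.05, as 10.6% of all genes had (edgeR quasi-likelihood test); DESeq2 and limma-voom also called 0. Group means lay close together: Krt8 was 31.6 ± 21.7 CPM in control and 29.4 ± 19.3 CPM with DKK1 (SD, n = 3 each), which left a difference of -0.13 on the log2 scale (SE 0.52, edgeR adjusted p = 0.970), and Msln was 9.73 ± 4.81 and 11.03 ± 6.15 CPM, or 0.16 on the log2 scale (SE 0.41, edgeR adjusted p = 0.9499). The groups overlapped in all 9, where 16.5% of all tested genes had groups that did not overlap.

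Because same-numbered samples deviated together, the treatment was also tested with the replicate number as a block, which called 9.42% of all genes. Again 0 of the 9 were called and 0 had an unadjusted p under 0.05, beside 20.7% of all genes. The block narrowed the standard errors, and 2 standard errors either side of the log2 fold change ran from -0.25 to 0.03 for Krt8, from -0.16 to 0.11 for Krt18, from -0.16 to 0.09 for Krt19, from -0.18 to 0.18 for Cdh1 and from -0.01 to 0.32 for Msln. They ran from -0.45 to 0.30 for Epcam, from -0.64 to 0.23 for Upk3b and from -0.34 to 0.62 for Wt1. The widest bounds were those of Sftpc, from -1.36 to 0.40, the gene whose pair numbered 2 held 75 and 6 counts. With the block in DESeq2 the standard errors were 1.66 to 2.45 times as large, and the bounds ran from -0.40 to 0.21 for Krt8, from -0.16 to 0.46 for Msln and from -3.36 to 0.92 for Sftpc. Changes within these bounds could not be told from none. Pair by pair, DKK1 was above its control in 14 of 27 same-numbered comparisons of the 9 genes and below it in 13. Msln was higher with DKK1 in 3 of 3 pairs, by 1.10, 1.05 and 1.19 times. Outside Sftpc the ratios lay between 0.662 and 1.49.

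**Figure D3:**
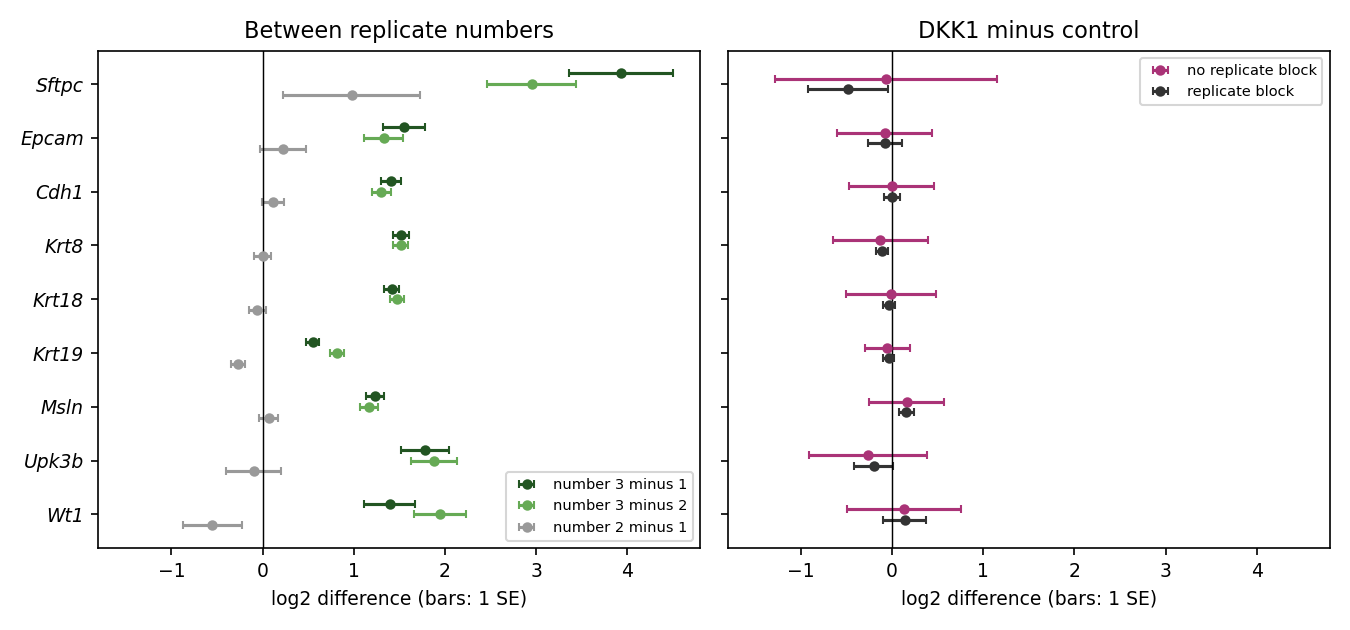
Fitted log2 differences of the 9 tested members with bars of 1 SE: on the left between replicate numbers (n = 2 libraries per number), on the right DKK1 minus control (n = 3 per group) without and with the replicate block. Number 3 lies above numbers 1 and 2 in each gene, and the treatment differences lie within 2 SE of 0 in both fits.

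Further genes of the same cell types, from lists of other markers, were read for the same order of the numbers. Of the 12 airway genes, 2 were tested and 0 were called between the numbers, Foxj1, a factor of ciliated cells, with an edgeR adjusted p of 0.161 and Tppp3 with 0.295. In both genes the 2 libraries numbered 3 lay above the other 4, an order that 13.3% of all tested genes had. Of 20 other genes of epithelial junctions and lineage, 12 were tested and 9 were called between the numbers, 9 with number 3 highest. Cldn4, a tight junction claudin, was 1.36 (SE 0.09) above number 1 and 1.27 (SE 0.08) above number 2 on the log2 scale (edgeR adjusted p = 3.56e-07), and Krt7, another simple keratin, 1.33 (SE 0.09) and 1.28 (SE 0.09; adjusted p = 4.79e-07). Of 6 other alveolar type 2 genes tested, 3 were called, all with number 3 highest: Sftpb, the lung lineage factor Nkx2-1 (edgeR adjusted p = 0.0492) and Lyz2, a lysozyme gene that macrophages also express. Of 10 alveolar type 1 genes, 8 were called, 5 with number 3 highest, among them Cldn18 with log2 differences of 1.44 and 1.46 (edgeR adjusted p = 0.000296). The other 3 called were highest elsewhere, Hopx and Vegfa at number 1 and Pdpn at number 2.

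The mesothelial list was mixed. Of 11 other mesothelial genes tested, 10 were called between the numbers, 7 with number 3 highest and 3 with number 2 highest. Lrrn4, a mesothelial surface protein, was 2.23 (SE 0.22) and 2.55 (SE 0.22) above numbers 1 and 2 on the log2 scale (edgeR adjusted p = 5.71e-06), and Bnc1, a mesothelial transcription factor, 1.84 (SE 0.31) and 2.23 (SE 0.31; adjusted p = 0.000442). Cpe and Aldh1a2, which were far more abundant (342 and 118.5 CPM on average) and are also made by fibroblasts, were highest at number 2.

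With DKK1, 2 genes of these lists were called without the block, and both are widely made outside epithelium and mesothelium. Pdpn, podoplanin, listed for alveolar type 1 cells, rose from 116 ± 6.30 to 163 ± 9.05 CPM (SD, n = 3 each), or by 0.48 in log2 units (SE 0.06, edgeR adjusted p = 0.00760). Igfbp5, an insulin-like growth factor binding protein listed for mesothelium, rose from 80.1 ± 14.2 to 146 ± 9.71 CPM or by 0.86 in log2 units (SE 0.11, edgeR adjusted p = 0.0129). With the block, Vegfa rose as well (adjusted p = 1.48e-05), while Nkain4 fell by 0.73 on the log2 scale (adjusted p = 0.00139) and Cpe fell by 0.08 (adjusted p = 0.0165). In the median over all tested genes the log2 fold change was -0.001; it was -0.16 over the alveolar type 1 list and -0.01 over the mesothelial list.

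Genes of other cell types moved with the same libraries. The summed level of 10 endothelial markers was 30.4 to 40.6 CPM in libraries numbered 1 and 2 and 86.9 and 85.7 CPM in those numbered 3. Of these markers, 9 were called, 9 with number 3 highest, and Cdh5, VE-cadherin, was 1.35 (SE 0.11) above number 1 and 1.91 (SE 0.11) above number 2 on the log2 scale (edgeR adjusted p = 4.65e-07). The macrophage and leukocyte list summed to 107 to 120 CPM in numbers 1 and 2 and to 192 and 204 CPM in number 3, with 10 of 11 tested genes called, all with number 3 highest. No marker of these 2 lists was at 0 in all libraries. In that list 1 gene, Cd14, was called with DKK1 (log2 fold change 0.85, edgeR adjusted p = 0.00280), and 9 were called with the block, 4 higher and 5 lower. The libraries numbered 3 held 22652987 (control) and 23058359 counts (DKK1), those numbered 1 held 22565917 and 28660112, and those numbered 2 held 28268124 and 34727102. With every library thinned to the smallest total, all 9 genes were called between the numbers with number 3 highest, where 14.1% of all genes were called, and the log2 difference between the highest and lowest number was 1.49 for Krt8 and ran from 0.92 (Krt19) to 3.89 (Sftpc). The p-values of that fit are not given, because the prior degrees of freedom that edgeR estimated were 10.8 at full depth and 13.7 to 20.4 over 4 random draws of the thinned counts; all 9 genes were called in each draw. The part of the other cell types in the level of the epithelial and mesothelial genes was not tested.

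**Figure D4:**
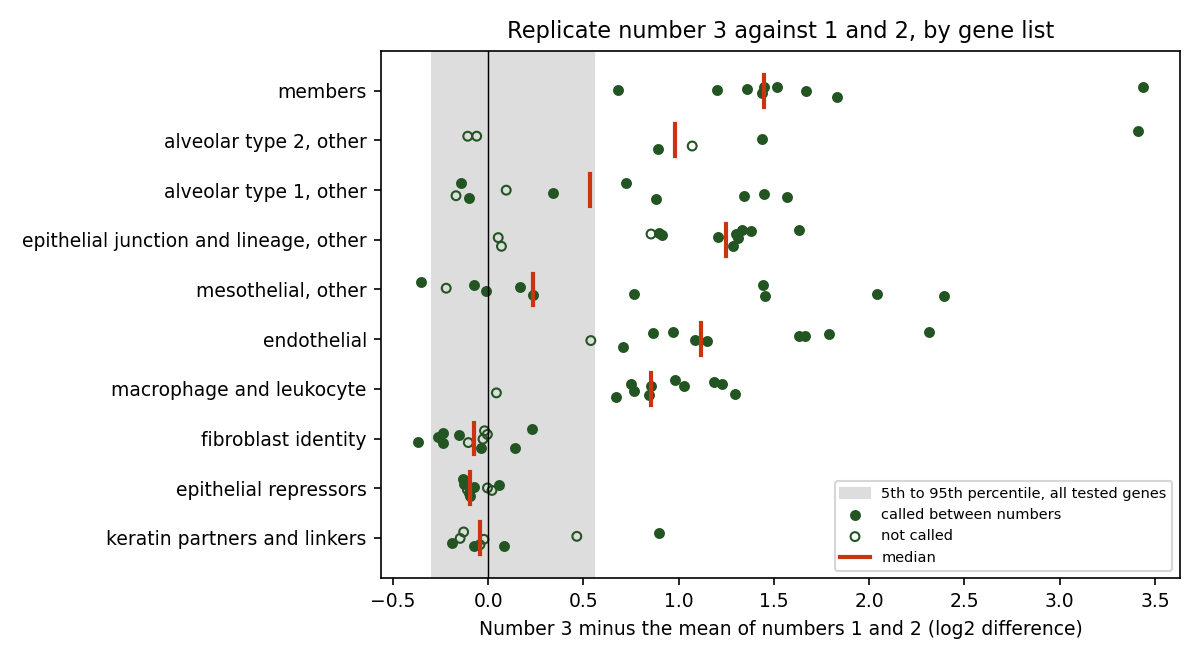
Log2 difference of number 3 from the mean of numbers 1 and 2 for each tested gene, by list; filled points were called between the numbers, red bars are list medians, and the grey band holds the middle of all tested genes, from -0.294 (5th percentile) to 0.554 (95th). All 9 tested members lie to the right of the band, with a median of 1.45, beside 1.12 for the endothelial list and -0.072 for the fibroblast list; the medians of the other mesothelial list (0.235) and of the alveolar type 1 list (0.533) lie inside the band.

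Fibroblast genes and repressors of epithelial genes had other orders. In the fibroblast identity list 8 of 12 genes were called between the numbers, 2 with number 3 highest, and the list's median difference of number 3 was 0.005 over number 1 and -0.15 over number 2. Of 9 tested genes on the repressor list 6 were called, 0 with number 3 highest. Prrx1 and Tcf4, the most abundant of the list, averaged 302 and 182 CPM and are not of the ZEB, SNAIL or TWIST families. Zeb1, which represses Cdh1, was at 106, 120 and 108 CPM in controls 1, 2 and 3 and at 110, 118 and 106 CPM with DKK1. Vim, the vimentin gene, averaged 2794 CPM and differed by at most 0.10 on the log2 scale between numbers (edgeR adjusted p = 0.0380). With DKK1, 0 genes of the repressor list were called (2 had an unadjusted p under 0.05), and with the block Zeb2 (log2 fold change 0.10, edgeR adjusted p = 0.0458) and Prrx1 (0.20, adjusted p = 2.87e-05) were called higher.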

How the data were processed

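RNA sequencing of 3 control and 3 DKK1-treated samples was used. The authors deposited RSEM expected counts per gene, not scaled, per the file name and header. STAR, RSEM, edgeR 4.2.1 and GRCm38 (mm10) are named in the submitters' processing notes, without roles; annotation release, strand setting and filters are not given in the sources used here. Symbols were matched for 45143 of 45706 identifiers (98.8%), and positions, lengths and overlaps came from GENCODE M21 (GRCm38).

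Expected counts were rounded to whole numbers, and edgeR 4.0.16 under R 4.3.3 was used for testing (filterByExpr, minimum count 10; TMM; glmQLFit and glmQLFTest, two-sided; called at a Benjamini-Hochberg adjusted p under 0.05 over 14635 genes). The treatment was tested in a model of the group alone, and the replicate number as 2 terms together in a model with number and group. Standard errors are the absolute log2 fold change over the square root of F. The numbers come from the sample titles; deviations from the group means of same-numbered samples correlated across genes at 0.35, 0.33 and 0.50, so they were treated as pairs. Replicates of a group were farther apart than sampling noise allows (chi-square per degree of freedom 5.13 to 8.16), so none was a copy.

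Genes named were the 10 members, the 2 most abundant and the called genes of 10 other lists (up to 6 a list), and the 3 genes of at least 1 CPM with the nearest profile to each member; a selection of these is printed. The members and lists were chosen with earlier results of these data known, among them that number 3 stood apart. Alternatives were DESeq2 size factors, library totals, no filter or at least 10 counts in every sample, DESeq2 1.42.0, limma-voom (limma 3.58.1), unrounded counts, equal depth, the replicate block and leaving out each sample. Intervals and the floor of 3 counts cover counting error only; reads are not independent molecules.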

Additional observations from a re-analysis of the deposited data

How the results depend on the processing

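In the 19 alternatives for the treatment, 0 of the genes tested (9, but 10 without a low-count filter and 8, without Sftpc, at a minimum of 10 counts per library) were called between DKK1 and control, while the number of genes called over the whole table went from 131 to 329 without a low-count filter, 282 with DESeq2, 1379 with the replicate block and 588 with the block in DESeq2; it ranged from 36 to 139 when 1 sample was left out, and was 6, 5 and 149 without both libraries of number 1, of number 2 and of number 3. The last settings, and those below that leave out both libraries of a number, were chosen after seeing the data. The replicate block changed no call among the 9 genes.

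The direction of these uncalled treatment differences was not stable. Leaving out 1 sample moved the log2 fold change between -3.53 and 1.07 for Sftpc, -0.735 and 0.508 for Epcam, -0.604 and 0.561 for Cdh1, -0.781 and 0.573 for Krt8, -0.715 and 0.552 for Krt18, -0.28 and 0.231 for Krt19, -0.37 and 0.624 for Msln, -1.06 and 0.662 for Upk3b, and -0.692 and 0.805 for Wt1; in each gene the extremes came without DKK1 replicate 3 or control replicate 3, which leaves number 3 in 1 group only. The sign also changed for Cdh1 with library totals (0.000632) and DESeq2 (0.0127), for Krt18 with DESeq2 (0.00147) and equal depth (0.00515), and for Sftpc at equal depth (0.0165). The Sftpc value moved further with the same sign, from -0.07 to -1.67 with limma-voom, -1.22 with the block in DESeq2 and -2.39 without both libraries of number 3. Without both libraries of number 1 it changed for Epcam (0.0626) and Krt18 (0.0266), without number 2 for Sftpc (0.316), Cdh1 (0.0709) and Krt18 (0.0272), and without number 3 for Krt19 (0.00396) and Wt1 (-0.0104).

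Between replicate numbers, all 9 genes were called in the fits run with number 3 kept, except Sftpc with DESeq2 (adjusted p = 0.0860), and except that Sftpc was not tested when each library had to hold at least 10 counts. The genes called over the whole table went from 1889 to 813 with DESeq2, from 1005 to 2545 when 1 sample was left out, and to 924 without both libraries of number 2. Without both libraries of number 3, 796 genes were called and 0 of the 9 genes, with adjusted p-values from 0.0858 (Krt19) to 0.988 (Krt8). The order of length-scaled levels kept 5 of 10 ranks with the union of exons and 5 with CPM, and from 7 to 10 when 1 library was left out, a setting also chosen after seeing the data. At this depth Scgb1a1 was at or under 3 counts in every library and was not tested in the fits with a low-count filter; for the changed values above, the cause was not tested.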

Other observations

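The genes whose profiles over the 6 libraries lay nearest to those of the epithelial and mesothelial genes, out of 13020 tested genes of at least 1 CPM, were not all epithelial. Likeness was the root mean square difference of log2(CPM + 0.5) values centred on each gene's mean. Nearest to Cdh1 was Cldn4 (0.0608), and nearest to Msln was Krt7 (0.0802). Nearest to Krt8, Krt18 and Upk3b was Gimap6, a GTPase gene of lymphocytes and endothelium, at 0.0908, 0.0897 and 0.0971. Gimap6 itself was low, at 0.620, 0.601 and 2.74 CPM in controls 1 to 3 and 0.593, 0.490 and 2.52 CPM with DKK1. The added 0.5 shrinks differences at such levels more than at those of the keratins, whose nearness to Gimap6 rests partly on it. Nearest to Epcam was Kit, a receptor tyrosine kinase gene, at 0.0865. Nearest to Krt19 was Cadm1 (0.0551), an adhesion molecule, and nearest to Wt1 was St14 (0.147), a membrane protease of epithelia. Sftpc had no near match: the closest was Sftpb at 0.558, beside a spread of Sftpc itself of 1.56 on the same measure.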
